A study of Mus musculus with 8 samples.

Results

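Egr1, Egr2, Egr3, Ier2, Ier3, Ier5, Nr4a1, Zfp36, Zfp36l1 and Zfp36l2 are early response genes that lie outside the AP-1 family. All 10 were found by symbol among the 16888 genes of the deposited expression table, and 8 of them were high enough to be tested. RNA was measured in whole pancreas from 8 mouse samples, all after repeated injection of cerulein, a cholecystokinin analogue given to mice to provoke acute pancreatitis. In 4 samples Anxa1, which encodes annexin A1, was knocked out specifically in myeloid cells (CKO1 to CKO4), and 4 came from mice with Anxa1 flox/flox alleles (WT1 to WT4). Every sample had pancreatitis and no untreated pancreas was analysed here. The driver of the myeloid deletion and the age, sex and strain of the mice are not given in the labels, nor do these state that the replicates were separate animals. Each p-value therefore measures the spread between these samples, which may be technical.

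Early response genes are transcribed within minutes of a stimulus from factors already present in the cell, above all serum response factor with its ternary complex partners and CREB, and most of their mRNAs are short-lived. The EGR and NR4A proteins are transcription factors, the IER proteins are short-lived regulators of stress signalling and growth, and the ZFP36 proteins bind AU-rich elements in the 3′ ends of mRNAs and bring in deadenylating enzymes. In the pancreas, overstimulation of acinar cells with cerulein is a known inducer of such genes.

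Annotated positions are those of GENCODE M21 on mm10, and all 10 genes are protein-coding. Ier2, a gene of 1 exon, lies at chr8:84661331-84662852 on the minus strand, and Zfp36 at chr7:28376784-28380253 on the minus strand. Egr2 is at chr10:67535475-67542188 (plus), Egr3 at chr14:70077203-70082614 (plus), and Ier3 at chr17:35821684-35822923 (plus). Ier5, also a gene of 1 exon, is at chr1:155096361-155099636 (minus), and Nr4a1 is at chr15:101254269-101274795 (plus). Zfp36l1 is at chr12:80107754-80113013 (minus) and Zfp36l2 at chr17:84183931-84187947 (minus).

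Promoters of 6 of the 10 genes were matched by symbol in RefSeq (GRCm38.p6), each window running from 250 bases before to 50 after an annotated start. Those of Egr1, Egr3, Ier2 and Zfp36l2 are not shown. The promoters below belong to a gene that was higher in CKO (Zfp36), a gene of the same family as Egr1 that stayed at trace level (Egr2, at 1 of its 5 annotated starts), and a gene that did not pass the test (Nr4a1). Capitals mark the CArG box, the motif that serum response factor binds, and TGACG, the core shared by both arms of the CREB motif TGACGTCA, on either strand.
Zfp36 promoter, chr7:28379179-28379478, minus strand: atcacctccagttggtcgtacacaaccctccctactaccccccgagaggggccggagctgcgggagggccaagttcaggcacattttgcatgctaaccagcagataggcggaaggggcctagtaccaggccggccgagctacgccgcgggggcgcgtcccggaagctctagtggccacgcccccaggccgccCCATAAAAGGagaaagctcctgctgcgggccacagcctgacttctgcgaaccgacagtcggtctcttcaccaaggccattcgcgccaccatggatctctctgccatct
Egr2 promoter, chr10:67537619-67537918, plus strand: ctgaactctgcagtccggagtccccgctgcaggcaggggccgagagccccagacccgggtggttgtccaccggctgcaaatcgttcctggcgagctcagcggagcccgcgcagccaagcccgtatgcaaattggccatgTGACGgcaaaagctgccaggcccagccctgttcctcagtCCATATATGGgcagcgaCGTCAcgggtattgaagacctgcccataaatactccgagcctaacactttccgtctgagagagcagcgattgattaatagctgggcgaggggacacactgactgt
Nr4a1 promoter, chr15:101266596-101266895, plus strand: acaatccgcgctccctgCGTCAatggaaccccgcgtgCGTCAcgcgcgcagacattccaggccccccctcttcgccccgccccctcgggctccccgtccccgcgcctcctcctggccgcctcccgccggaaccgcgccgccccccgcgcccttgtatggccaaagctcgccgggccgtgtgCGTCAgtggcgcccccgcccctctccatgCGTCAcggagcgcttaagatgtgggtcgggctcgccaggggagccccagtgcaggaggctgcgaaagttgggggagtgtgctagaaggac
The CArG box stood 58 bases before the start of Zfp36 and 72 bases before this start of Egr2. It was found at 4 of the 5 Egr2 starts and was absent from the windows of Ier3, Ier5, Zfp36l1 and Nr4a1. The Egr2 windows that begin at 67537619, 67537620 and 67537680 overlap and hold the same box, so they do not show separate sites. Of all 32851 mouse promoters of this length, 1.63% held a CArG box. TGACG was found 4 times in the Nr4a1 window and 2 times in the Egr2 window, and in 20.81% of all promoters. Zfp36 and Nr4a1 each held 1 copy of GCGNGGGCG, a loose form of the EGR motif that 5.55% of all promoters held. These matches describe letters and were not tested as binding sites.

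The targets of the ZFP36 proteins are read from the 3′ UTR, so the heptamer TATTTAT was searched there on the transcript strand, in the longest 3′ UTR of each gene. It occurred 4 times in Ier3, 3 times each in Zfp36, Zfp36l1 and Zfp36l2, and 0 times in Egr1, Egr2, Egr3, Ier2, Ier5 and Nr4a1. Of 20831 mouse genes with a coding transcript, 27.8% held it. A stretch of 30 bases around 1 site in each of the 4 genes follows, with the heptamer in capitals, to show that the 3 genes of the ZFP36 family carry the heptamer that their own proteins bind.
Ier3 3′ UTR, chr17:35822481-35822510, plus strand: tgtctaattaaTATTTATgTATTTATgtat
Zfp36 3′ UTR, chr7:28376965-28376994, minus strand: agtgggcccttTATTTATgacgactttatt
Zfp36l1 3′ UTR, chr12:80108421-80108450, minus strand: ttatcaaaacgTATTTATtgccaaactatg
Zfp36l2 3′ UTR, chr17:84184913-84184942, minus strand: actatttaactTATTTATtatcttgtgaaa
The Ier3 stretch holds 2 copies and the other 3 hold 1. The longer nonamer TTATTTATT, which contains the heptamer, was found once in each of Zfp36, Zfp36l1 and Zfp36l2 and in 7.7% of all genes. The heptamer was thus present in 1 of the 3 genes that rose in CKO (Zfp36) and in 3 of the 5 tested genes that did not pass the test.

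Levels are RPKM, reads scaled to the length of the gene and to the reads of the library, and can be compared between genes. The library totals recovered from them ran from 30469002 to 34359802 reads. Differences are CKO minus WT on the log2(RPKM + 1) scale, from limma, with Benjamini-Hochberg adjustment over the 8513 genes that reached 1 RPKM in 4 or more libraries. A fold is a ratio of mean RPKM. Anxa1 itself was at 4.84, 4.76, 5.21 and 7.13 RPKM in CKO1 to CKO4 and at 8.44, 14.7, 7.05 and 9.74 RPKM in WT1 to WT4. Its difference was -0.73 (SE 0.19, limma adjusted p = 0.0417), with CKO4 just above WT3. This call was lost in 6 of the 8 fits that left out a library (it held without CKO4 and without WT3), with a limma adjusted p of up to 0.108 (without CKO2), and it was lost under 5 of the other settings. In a whole organ a deletion limited to myeloid cells leaves the Anxa1 of all other cells, and in bulk RNA fewer cells of a type and less RNA per cell cannot be told apart.

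The label pancreas was checked with acinar enzyme genes, which took 47.7% to 55.4% of reads in CKO and 48.7% to 51.9% in WT. Of 21 tested acinar genes, 2 were higher and 3 lower in CKO. Among 11 macrophage markers 2 were lower (Ccr2 and Tyrobp) and 0 higher, none was at 0 in all libraries, and they summed to between 172 and 358 RPKM in CKO and to between 318 and 635 RPKM in WT. The 6 duct markers summed to 258 to 477 RPKM in CKO and 467 to 570 RPKM in WT, with 1 of 5 tested lower (Sox9). The 10 neutrophil markers summed to between 14.4 and 47.0 RPKM in CKO and to between 37.6 and 84.1 RPKM in WT. B and T cell markers were too low to test, summing to at most 5.40 and 1.09 RPKM. Islet hormone genes summed to between 1290 and 2032 RPKM in CKO and to between 846 and 1631 RPKM in WT (1 of 6 higher, Gcg). Endothelial markers summed to between 11.8 and 15.6 RPKM in CKO and to between 12.1 and 20.2 RPKM in WT (1 of 3 tested lower, Kdr), and fibroblast markers to between 64.0 and 102 RPKM and between 54.9 and 122 RPKM. Adipocyte markers summed to 133 RPKM in WT2 and to between 23.9 and 38.3 RPKM in the other 7 libraries.

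WT2 stood apart, with the highest sum of the 8 libraries for 7 of the 10 marker lists. Without it 3 early genes were higher and 0 lower, as with it. The differences without WT2 were 2.19 for Egr1, 0.94 for Ier2, 0.82 for Zfp36, 0.17 for Ier3, -0.43 for Ier5, -0.05 for Nr4a1, 0.25 for Zfp36l1 and 0.19 for Zfp36l2. The part of the marker differences in the values below was not otherwise tested.

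Among the early genes, 3 of the 8 tested rose in CKO, namely Egr1, Ier2 and Zfp36, and 0 fell. Over all 8513 genes tested, 1.42% were called higher and 5.74% lower, so calls ran mostly downward while those of the early genes ran upward. The early genes were chosen with earlier results of these data known, so this contrast is a description and not a test. The median difference of the 8 was 0.22, against -0.12 over all tested genes. No early gene was lower at an unadjusted limma p under 0.05 (0 of 8), and limma-voom on the recovered reads also gave 3 higher and 0 lower. The groups of Egr1, Ier2 and Zfp36 did not overlap, and those of the other 7 genes did. The share of all tested genes whose groups did not overlap is not given here, so these 3 are not set against a background.

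**Figure D1:**
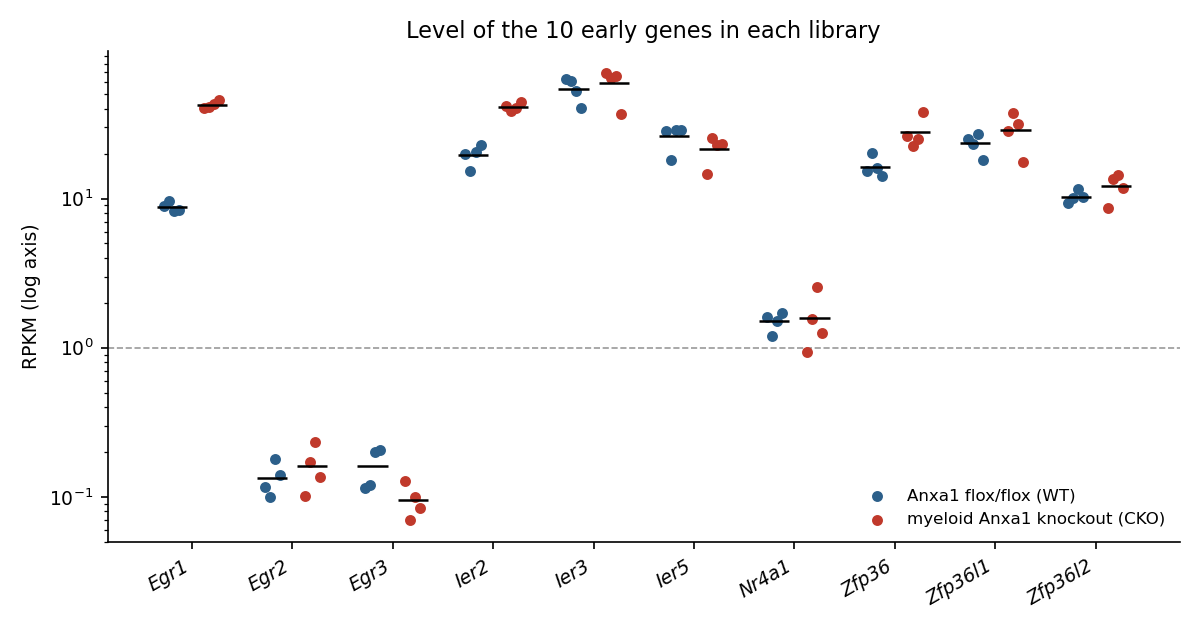
Level of each of the 10 early genes in RPKM on a log axis, with WT libraries in blue, CKO libraries in red and the group mean as a black bar (n = 4 each). The dashed line is the 1 RPKM minimum for testing, above which Egr2 and Egr3 never come. Egr1, Ier2 and Zfp36 separate by genotype, and the points of the other genes overlap.

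Egr1, a zinc finger transcription factor that is a standard marker of growth factor and stress signalling, showed the largest difference of the 8 tested. The gene, of 2 exons, lies at chr18:34859823-34864984 on the plus strand. It stood at 40.3, 40.9, 42.7 and 46.0 RPKM in CKO1 to CKO4, and at 8.84, 9.57, 8.30 and 8.38 RPKM in WT1 to WT4. Every CKO library lay more than 30 RPKM above every WT library, and the libraries within a group were close together. The means were 42.5 ± 2.55 and 8.77 ± 0.583 RPKM (SD, n = 4 each), 4.84-fold apart. The difference of 2.15 (SE 0.10, limma adjusted p = 3.09e-07) passed the threshold under every setting tried and with any 1 library left out, when it ran from 2.12 to 2.19. It rested on 784 to 4475 reads per library, so counting error was at most 3.57% of a value, against a spread between libraries of 5.998% in CKO and 6.65% in WT.

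Egr2 and Egr3, close relatives of Egr1 with nearly the same DNA binding domain, were detected at trace level. Egr2 was at 0.101, 0.171, 0.235 and 0.135 RPKM in CKO and at 0.117, 0.0997, 0.180 and 0.140 RPKM in WT. The groups overlapped fully, with the highest library in CKO and the lowest in WT. Egr3 was at 0.127, 0.0704, 0.0992 and 0.0842 RPKM in CKO and at 0.114, 0.121, 0.201 and 0.206 RPKM in WT. CKO1 lay above WT1 and WT2, and the other 3 CKO libraries lay below all of WT.

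These values came from 12 to 30 reads per library for Egr2 and 10 to 26 for Egr3, above the 3 reads taken as the least that show a level. Summed over libraries, Egr2 had 81 reads in CKO and 63 in WT, a ratio per total of 1.203 with a 95% exact interval of 0.855 to 1.70. Egr3 had 53 and 83 reads, a ratio of 0.598 with an interval of 0.415 to 0.853. Both intervals cover counting error only and leave out the spread between libraries. With no filter on low values, limma gave Egr2 0.03 (adjusted p = 0.689) and Egr3 -0.08 (adjusted p = 0.226), so neither passed. Egr1 made up 99.4% ± 0.127 of the summed RPKM of the 3 genes in CKO and 96.7% ± 1.05 in WT (SD, n = 4 each).

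Nr4a1, an orphan nuclear receptor induced by calcium and cAMP signals, was low in both groups. It was at 0.930, 1.56, 2.57 and 1.26 RPKM in CKO1 to CKO4 and at 1.60, 1.19, 1.501 and 1.70 RPKM in WT1 to WT4. The highest and the lowest of the 8 libraries were both CKO, and the 4 WT libraries lay between them. The means were 1.58 ± 0.707 and 1.499 ± 0.221 RPKM (SD, n = 4 each), with a difference of 0.01, a 95% interval of -0.35 to 0.38 and a limma adjusted p of 0.972. On this scale the interval lies well under the difference of Egr1, though it does not show that the groups are equal. At so low a level the 1 added before the log shrinks both the difference and its interval. With 0.1 added instead, the difference was -0.007 (limma adjusted p = 0.99), against 2.26 for Egr1.

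**Figure D2:**
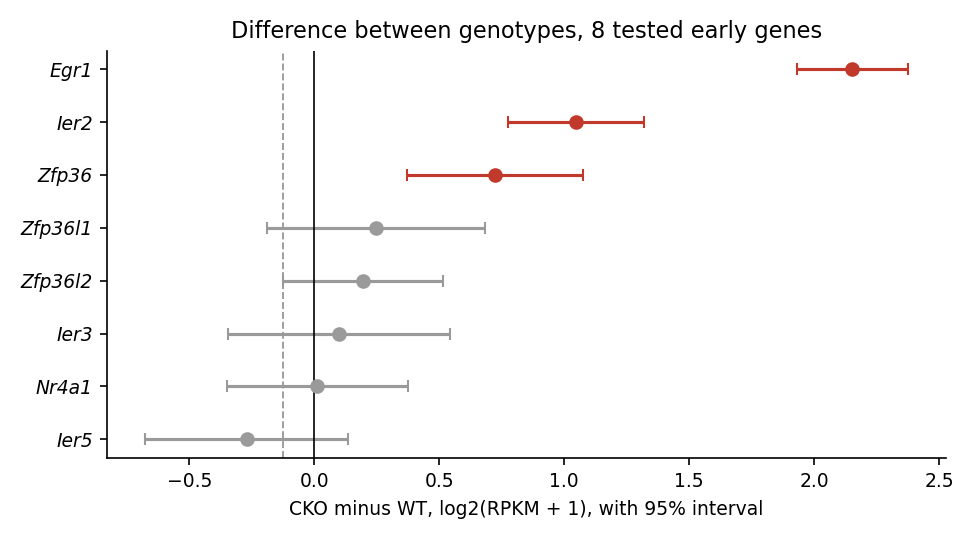
Difference between genotypes (CKO minus WT, log2(RPKM + 1)) for the 8 tested early genes with 95% limma intervals, red where the adjusted p passed 0.05 and grey where it did not (n = 4 each). The dashed line is the median of all tested genes (-0.12). The interval of Egr1 (1.93 to 2.37) lies above those of all 7 others. The 1 added before the log narrows most the interval of Nr4a1, the lowest of the 8.

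Ier2, a nuclear protein of the immediate early response, was at 42.0, 38.8, 40.4 and 44.2 RPKM in CKO1 to CKO4 and at 19.9, 15.3, 20.5 and 23.0 RPKM in WT1 to WT4. All 4 CKO libraries were above all of WT, and WT2 was the lowest of the 8. The means were 41.4 ± 2.29 and 19.7 ± 3.18 RPKM (SD, n = 4 each), a 2.10-fold difference. On the log2 scale this was 1.05 (SE 0.13, limma adjusted p = 0.0006), and with any 1 library left out it ran from 0.94 to 1.12 and stayed past the threshold.

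Ier3, a stress-induced regulator of survival signalling, had the highest mean level of the 10 in both groups. It was at 69.3, 64.3, 66.6 and 36.9 RPKM in CKO1 to CKO4 and at 63.5, 61.8, 52.4 and 40.3 RPKM in WT1 to WT4. The groups overlapped, and the fourth library of each group was its lowest. The difference was 0.10 (95% interval -0.35 to 0.54, limma adjusted p = 0.788). Without WT4 it turned to -0.035 (limma adjusted p = 0.928).

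Ier5, a regulator of the heat shock response, was at 14.6, 25.4, 22.8 and 23.2 RPKM in CKO1 to CKO4 and at 28.5, 18.3, 28.8 and 28.8 RPKM in WT1 to WT4. Of the WT libraries 3 lay above all of CKO, while WT2 lay below 3 of the 4 CKO libraries. The means were 21.5 ± 4.74 and 26.1 ± 5.22 RPKM (SD, n = 4 each). The difference of -0.27 (95% interval -0.68 to 0.14) did not pass (limma adjusted p = 0.371), and it was the only negative estimate among the 8.

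Zfp36, which encodes tristetraprolin, the founding member of the mRNA decay family, was at 26.2, 22.4, 25.1 and 38.2 RPKM in CKO1 to CKO4 and at 15.2, 20.04, 15.9 and 14.2 RPKM in WT1 to WT4. All CKO libraries were above all of WT, though CKO2 and WT2 came within 3 RPKM of each other and CKO4 stood above the rest. The means were 28.0 ± 7.005 and 16.3 ± 2.58 RPKM (SD, n = 4 each), a 1.71-fold difference. The log2 difference was 0.72 (SE 0.16, limma adjusted p = 0.0246). The call was close to the threshold and was lost without WT1 (limma adjusted p = 0.0706), without WT3 (0.0546), without WT4 (0.0651) and with no filter on low values (0.0616), and without CKO4 the difference was 0.57 (0.0470).

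Zfp36l1, a relative with the same RNA binding fingers, was at 28.3, 37.2, 31.5 and 17.7 RPKM in CKO1 to CKO4 and at 25.1, 23.3, 27.2 and 18.2 RPKM in WT1 to WT4. The 3 highest libraries were CKO, and the lowest was CKO4. CKO4 was therefore the highest library of the 8 for Zfp36 and the lowest for both Zfp36l1 and Ier3. The difference was 0.25 (95% interval -0.19 to 0.68, limma adjusted p = 0.451).

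Zfp36l2, the third member, was at 8.68, 13.6, 14.4 and 11.8 RPKM in CKO1 to CKO4 and at 9.28, 10.1, 11.6 and 10.2 RPKM in WT1 to WT4. The 3 highest libraries were again CKO and the lowest was CKO1. The difference was 0.20 (95% interval -0.13 to 0.52, limma adjusted p = 0.414). Together the 3 genes reached 68.7 ± 4.37 RPKM in CKO and 50.1 ± 5.47 RPKM in WT (SD, n = 4 each). Zfp36 took 41.0% ± 11.3 of this sum in CKO and 32.6% ± 3.68 in WT.

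Egr1 and Ier5 changed places most in the order of levels. In WT the order of mean RPKM was Ier3, Ier5, Zfp36l1, Ier2, Zfp36, Zfp36l2, Egr1, Nr4a1, Egr3 and Egr2. The ranges of neighbours overlapped from Ier5 through Zfp36, between Zfp36l2 and Egr1, and between Egr3 and Egr2. In CKO the order was Ier3, Egr1, Ier2, Zfp36l1, Zfp36, Ier5, Zfp36l2, Nr4a1, Egr2 and Egr3. Egr1 thus went from rank 7 in WT to rank 2 in CKO, and Ier5 from rank 2 to rank 6. The ranges of Ier3, Egr1 and Ier2 overlapped in CKO, as did those of Zfp36l1, Zfp36 and Ier5 and those of Egr2 and Egr3.

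The genes were next compared with each other inside each library, as 9 ratios log2((a + 1)/(b + 1)) of RPKM, 6 within a family and 3 across families. A plain ratio does not depend on the library total, and the pseudocount brings in some dependence where a gene is low, so the ratios were also taken without it, when the same number passed. An exact two-sided permutation test over the 70 arrangements of 4 and 4 was used, whose smallest possible p is 0.0286, adjusted over the 9 pairs. In all, 7 of the 9 reached that smallest p (adjusted p = 0.0367), with no overlap between the groups. The ratios that hold Egr1 carry its wide separation, so the 7 are not separate results. The adjusted p of each pair also depends on how many pairs reach the smallest p. That of Ier2/Ier3 and Ier2/Ier5, which do not hold Egr1, therefore rests in part on the ratios that do. These pairs were not adjusted apart from them.

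The Egr1/Egr2 ratio was 5.23 ± 0.10 in CKO and 3.11 ± 0.12 in WT, and the Egr1/Egr3 ratio was 5.31 ± 0.10 and 3.07 ± 0.14 (SD, n = 4 each). Both separated the groups in every library, by 2.12 and 2.24. Egr2 and Egr3 lie far under the pseudocount, so these differences nearly restate that of Egr1, and without it they were 2.05 and 3.01 (exact permutation adjusted p = 0.0367 for each). Ier2/Ier3 was -0.71, -0.71, -0.71 and 0.25 in CKO1 to CKO4 and -1.62, -1.94, -1.32 and -0.79 in WT1 to WT4. WT4 came within 0.1 of CKO1, CKO2 and CKO3, and CKO4 was the only library with more Ier2 than Ier3. Ier2/Ier5 was 0.94 ± 0.37 in CKO and -0.38 ± 0.12 in WT (SD, n = 4 each). Ier2 was therefore the higher of these 2 genes in all 4 CKO libraries and the lower in all 4 WT libraries.

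The 3 genes that rose did not rise by the same amount. Ier2/Egr1 fell by 1.11 from 1.07 ± 0.31 in WT to -0.04 ± 0.06 in CKO, and Zfp36/Egr1 fell by 1.43 from 0.82 ± 0.14 to -0.61 ± 0.25 (SD, n = 4 each). In WT every library had more Ier2 and more Zfp36 than Egr1, and in CKO every library had less Zfp36 than Egr1 and nearly equal Ier2 and Egr1. Nr4a1/Egr1 fell by 2.14, from -1.97 ± 0.21 to -4.11 ± 0.37. As Nr4a1 itself differed by 0.01, this nearly restates the difference of Egr1.

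The ratio of Zfp36 to its relatives was not shown to differ. Zfp36/Zfp36l1 was -0.10, -0.71, -0.32 and 1.07 in CKO1 to CKO4 and -0.69, -0.21, -0.74 and -0.34 in WT1 to WT4. CKO4 stood apart, and the other CKO libraries lay within or just above the WT range. The difference was 0.48 (exact permutation p = 0.257, adjusted p = 0.257), and 0.12 without CKO4. Zfp36/Zfp36l2 differed by 0.53 (exact permutation p = 0.114, adjusted p = 0.129), with 2 of 4 CKO libraries above all of WT.

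**Figure D3:**
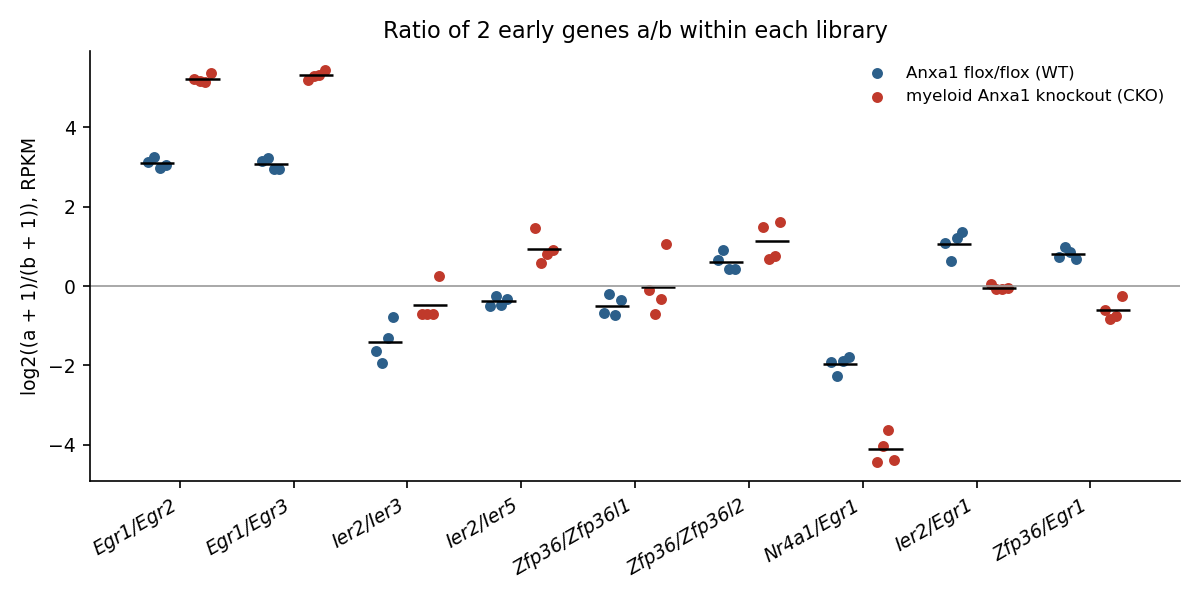
Log2 ratio of 2 early genes within each library, as log2((a + 1)/(b + 1)) of RPKM, with WT in blue, CKO in red and the group mean as a black bar (n = 4 each). The groups separate for 7 of the 9 pairs and overlap for Zfp36/Zfp36l1 and Zfp36/Zfp36l2.

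Other early response genes were read from a list of 46 symbols, of which 43 were in the table and 37 were tested. In CKO 12 were higher, 3 were lower and 22 did not pass, with a median difference of 0.28 against -0.12 over all tested genes. Of all tested genes 1.42% were called higher and 5.74% lower. Of the 12, Plk3 and Per1 were under 1 RPKM in every WT library and met the filter through CKO alone, so they could be called only as higher, and 10 were higher apart from them. The list was chosen with earlier results of these data known. The largest rise was that of Hbegf, an EGF receptor ligand, at 17.1 to 32.1 RPKM in CKO and 1.52 to 4.94 RPKM in WT (difference 2.44). Klf6, a zinc finger transcription factor, was at 69.9 to 109 RPKM in CKO and 23.9 to 33.8 RPKM in WT (1.59). Dusp1, the phosphatase that switches off MAP kinases, rose by 1.42, the small MAF protein gene Maff by 1.15, and Csrnp1, a nuclear protein gene, by 1.27. Without CKO2 the count of higher genes was 7 instead of 12, since Atf3, Ccn1 and Jund no longer passed and Plk3 and Per1 fell under the filter.

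Of 7 tested AP-1 genes on that list 3 rose, where 1.42% of all tested genes were called higher. Atf3 rose by 1.00, Junb by 0.71 and Jund by 0.59. The others above the threshold were Myc (0.98), Plk3 (0.89), Ccn1 (0.62) and Per1 (0.43). The pseudocount of 1 shrinks the differences of low genes, so their order depends on it. At a pseudocount of 0.1, Plk3 differed by 1.43, Myc by 1.04, Per1 by 0.81 and Ccn1 by 0.75. The genes of the list that fell were Gadd45b, a stress sensor (-1.28), Btg1, an antiproliferative gene (-0.97), and Plk2, a polo-like kinase (-0.89). Gadd45b went from 31.9 to 47.9 RPKM in WT to 13.0 to 19.5 RPKM in CKO. Several of these calls lay close to the threshold and were lost with 1 library left out. Atf3 was lost without CKO2 (limma adjusted p = 0.0594) or CKO4 (0.0581), and Plk2 without WT1 (0.0516) or WT4 (0.0563). Ccn1 was lost without CKO2 (0.0620), WT1 (0.0733), WT3 (0.0569) or WT4 (0.0537), and Jund without CKO2 (0.0737), WT1 (0.0612), WT2 (0.0671) or WT3 (0.0549). Per1 was lost without any 1 WT library (limma adjusted p 0.0503 to 0.115) and, like Plk3, fell under the filter without any 1 CKO library.

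**Figure D4:**
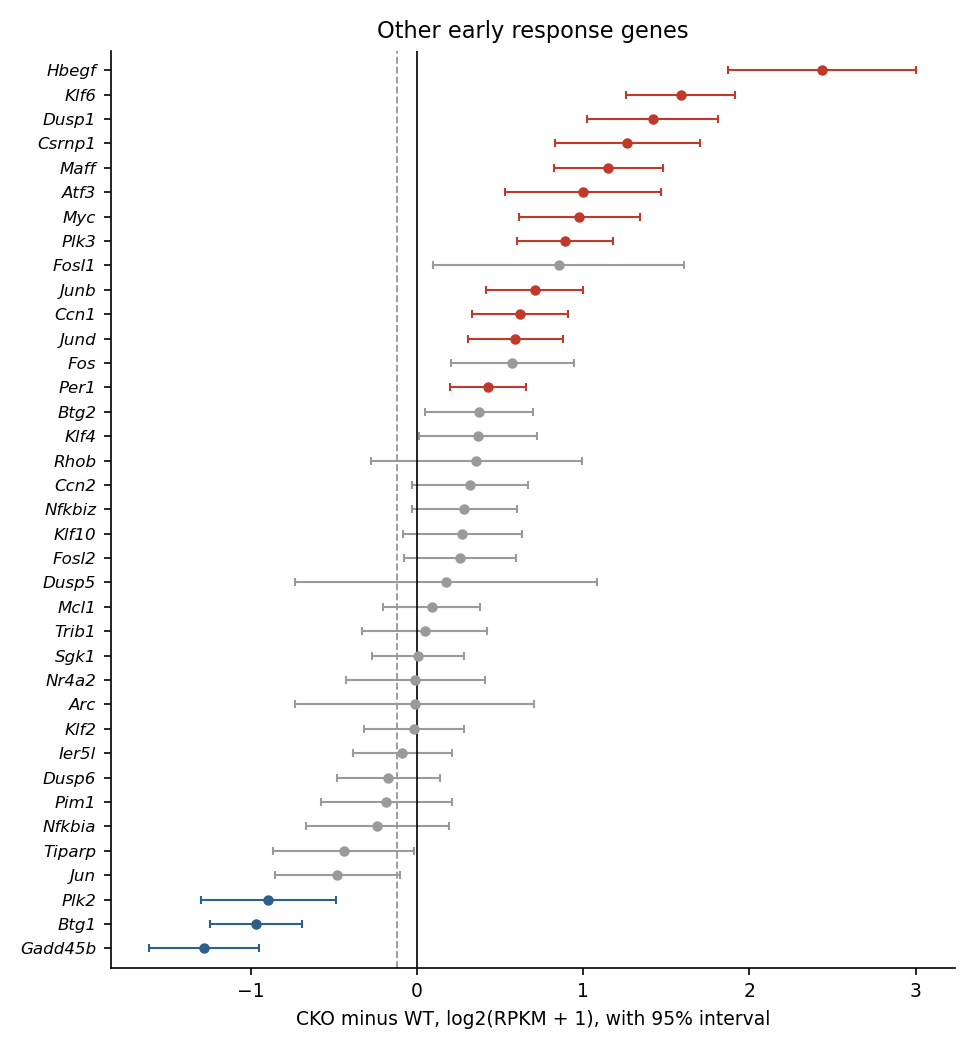
Difference between genotypes (CKO minus WT, log2(RPKM + 1)) with 95% limma intervals for the 37 tested genes of the wider early response list, red where higher and blue where lower past an adjusted p of 0.05, grey otherwise (n = 4 each). The dashed line is the median of all tested genes (-0.12). Hbegf (2.44) and Gadd45b (-1.28) mark the ends.

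Genes that act upstream of the early response, the serum response factor and CREB families and the ERK and p38 cascades, were tested for all 20 that were in the table. By limma 0 were higher and 0 lower, where 1.42% of all tested genes were called higher and 5.74% lower. A list of 20 genes is too short for 0 calls to stand apart from these shares. At an unadjusted p under 0.05, 0 were higher and 4 lower, limma-voom called 0 either way, and the median difference was -0.04. The smallest p-values were those of Map2k1, which encodes the kinase MEK1 (-0.39, limma adjusted p = 0.0926), Elk3, a ternary complex factor (-0.35, 0.117), Mapk14, which encodes p38 alpha (-0.31, 0.154), and Mapkapk2, its substrate kinase (-0.25, 0.180). Without CKO3 Map2k1 passed as lower (limma adjusted p = 0.0372). These are mRNA levels and hold nothing on the phosphorylation through which the cascade acts.

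Of 14 tested EGR corepressors and known EGR1 targets, 1 rose and 1 fell, and the median of -0.12 was that of all tested genes. Of all tested genes 1.42% were called higher and 5.74% lower. The gene that rose, Gdf15, met the filter through CKO alone and could be called only as higher, so 0 of the other 13 rose (1 at an unadjusted p under 0.05, 0 by limma-voom). Gdf15, a stress cytokine of the TGF-beta superfamily, rose from 0.259 to 0.509 RPKM in WT to 3.25 to 4.38 RPKM in CKO (difference 1.76, limma adjusted p = 3.80e-06). Without any 1 CKO library Gdf15 was not tested, and with no filter its limma adjusted p was 0.000133. Pdgfa, a growth factor gene, fell by 0.86 (limma adjusted p = 0.00829). Cd44, a cell surface receptor, and Sphk1, sphingosine kinase 1, differed by -0.39 and -0.38 with limma adjusted p of 0.103 and 0.131, and without CKO3 Cd44 passed as lower (0.0378).

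Factors of mRNA decay, other proteins that bind AU-rich elements, and the mRNAs that the ZFP36 proteins are known to target were read in the same way. Of 8 tested genes of such factors 0 were higher and 0 lower by limma, with 2 lower at an unadjusted p under 0.05 and 0 called by limma-voom. With 1.42% of all tested genes called higher and 5.74% lower, 0 calls among 8 is near those shares. The nearest to the threshold were Hnrnpd, an AU-rich element binding protein (-0.43, limma adjusted p = 0.0776), and Cnot7, a deadenylase (-0.30, 0.0926). Dcp1a, a decapping factor, differed by 0.15 (0.368) and Elavl1, a stabilizing AU-rich binding protein, by -0.08 (0.645). Of 17 listed AU-rich targets 11 reached the filter and were tested. Of these 3 rose and 0 fell, against 1.42% and 5.74% of all tested genes, with 0 lower at an unadjusted p under 0.05 and 0 lower by limma-voom. They were Vegfa (1.07), Myc (0.98) and Lif (1.40), the last a cytokine gene, and Ccnd1, the cyclin D1 gene, differed by 0.41 (limma adjusted p = 0.0690) and passed as higher without CKO1 (0.0482), under median centring (0.0326), with totals without acinar enzymes (0.0477) and with a length trend removed (0.0367). The median of the 11 was 0.28, a list that also holds Ier3. Myc, Pim1, Nfkbiz and Ptgs2 are on the wider early response list too, so Myc is counted as higher in both.

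The genes whose profile over the 8 libraries was most like that of Egr1 were sought by the root mean square difference of log2(RPKM + 1), each profile centred on its own mean. Among the 8512 other tested genes these were Gdf15 (0.22), Gadd45a (0.26), Slc38a2 (0.32), Wfdc2 (0.34) and Ppp1r15a (0.36), against a median of 1.15. Gdf15 was under 1 RPKM in every WT library and met the filter through CKO alone. The pseudocount of 1 shrinks its difference, which at a pseudocount of 0.1 was 3.03, against 2.26 for Egr1. Nearest profiles were not sought at that pseudocount. Gadd45a, unlike Gadd45b, was higher in CKO, at 14.3 ± 1.70 RPKM and 3.17 ± 0.921 RPKM in WT (SD, n = 4 each). The genes most like Ier2 were Btg3 (0.18), Ugt2b34 (0.19), Pim3 (0.19), Maff (0.20) and Atf3 (0.20), against a median of 0.64. These likenesses are descriptions over 8 libraries and follow chiefly the difference between the groups.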

How the data were processed

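The authors deposited 1 table of gene values without a unit in its header. The deposited values were read as RPKM from the numbers: of 16068 genes above 0 in at least 2 libraries, 99.93% gave whole reads in every library within 0.05 reads, at 1 gene length and the recovered library totals. The build was mm10, per the submitters' processing notes, and the labels name no aligner, counter or annotation. A further unnamed column (1) was not used.

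The design allowed for RPKM or counts, and limma 3.58.1 (R 4.3.3) was run on log2(RPKM + 1), for genes that reached 1 RPKM in 4 or more libraries, with group as the only term, a variance trend, robust empirical Bayes and a threshold of 0.05. Python 3.11.15 served for ratios and searches, with SciPy 1.17.1 and NumPy 2.4.6, and tables and plots were made in pandas 2.3.3 and with Matplotlib 3.10.9. The fit and the recovery were tested on simulated data. Counts of 3 reads were taken as the floor, and floors and counting intervals cover counting error only. No pair of replicates differed by as little as sampling noise.

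The members and gene lists were chosen with earlier results of these data known. Genes named are the 10 early genes, from each list the 4 tested genes with the smallest unadjusted p and any past the threshold, and the 5 nearest profiles to Egr1 and to Ier2. Alternatives were a pseudocount of 0.1, no filter, a filter at 1 CPM, no variance trend, limma-voom on recovered reads, totals without acinar enzymes, centring on the median, a length trend taken out, the replicate block, and each library left out. Neither proteins nor untreated pancreas were analysed here.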

Additional observations from a re-analysis of the deposited data

Results flagged for a closer look

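In 2 of the 20 groups of 4 libraries examined (10 genes in 2 genotypes), 1 library stood far from the other 3, by a gap past Dixon's 95% critical value for 4 samples, and chance alone marks about 1 in 20 such groups. Ier3 was at 36.9 RPKM in CKO4, against 64.3 to 69.3 RPKM in the other CKO libraries. Ier5 was at 18.3 RPKM in WT2, while WT1, WT3 and WT4 ran from 28.5 to 28.8 RPKM.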

How the results depend on the processing

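Egr1 and Ier2 kept their direction and their call under all 9 other settings and all 8 fits that left out a library. The count of early genes called higher was 2 with no filter on low values and 3 under the other 8 settings, and 2 to 3 with a library left out, and the count called lower was 0 throughout. The count of the wider list called higher was 7 to 11 with a library left out (7 without CKO2), and that called lower 2 to 3. Nr4a1, which was not called, changed sign under limma-voom (-0.01), at a pseudocount of 0.1 (-0.007), without CKO3 (-0.16) and without WT2 (-0.05), and ran from -0.16 to 0.14 with a library left out. Ier3 changed sign to -0.035 without WT4 and ran up to 0.308 without CKO4, and Elavl1 changed to 0.022 under median centring. The causes were not tested. Median centring moved the median of all tested genes from -0.12 to -0.02 and changed the sign of no early gene. With the replicate number as a block, 3 early genes were higher and 0 lower, and 10 and 3 genes of the wider list, where Jund (limma adjusted p = 0.0503) and Per1 (0.0528) were lost. Libraries of the same number correlated between -0.32 and 0.14 in their deviations from the group means, and those of different number between -0.28 and 0.22. This gave no sign that the numbers pair the samples, though so few libraries cannot exclude it. The 7 ratios past the threshold stayed so with a pseudocount of 0.1 and with none, and with 3 libraries against 4 they are given as values only, since that test cannot pass after adjustment. With 10 to 30 reads per library, Egr2 and Egr3 are limited by depth.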
